A study of Mus musculus with 9 samples.

Results

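The genes described here are Il34, Islr, Cd200r2, Cela1, Pdzk1, Gpx8, B4galnt4, Rnf180 and Creb3l1, 9 of the 19938 genes measured on arrays of innate intraepithelial lymphocytes from the mouse small intestine. They were picked because earlier values from these same arrays showed them higher in both populations that carry CD8aa. Each gene was found by its symbol in the platform annotation and each had 1 row on the array. In RefSeq they lie on chromosomes 8 (Il34), 9 (Islr), 16 (Cd200r2), 15 (Cela1), 3 (Pdzk1), 13 (Gpx8 and Rnf180), 7 (B4galnt4) and 2 (Creb3l1). On average all 9 stood higher in both CD8aa+ populations than in Ly49E+CD8aa- cells, by log2 differences of 0.63 to 1.51. Between the CD8aa+ populations 0 of the 9 passed the test, where 0.13% of all genes did, so this count is no result about them. The arrays of 3 (Il34, Pdzk1 and Creb3l1) did not overlap there, beside 6.25% of all genes.

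The study sorted CD3- CD45+ cells from the epithelial lymphocyte fraction of 8 to 10 week old NOD-SCID mice, to a purity above 98%, and hybridised amplified total RNA to Affymetrix Mouse Gene 1.0 ST arrays. Its 3 populations were Ly49E+CD8aa+, Ly49E-CD8aa+ and Ly49E+CD8aa-, each with 3 arrays numbered as biological replicates. NOD-SCID mice, the strain of all 3 populations, lack mature T and B cells, so the cells are a model of innate lymphocytes in a host without adaptive lymphocytes. How many mice each array stands for was not given in the sources used here, so p-values measure the spread between these samples, which may be technical in part.

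CD8aa, a pair of CD8 alpha chains, is a surface marker of many lymphocytes that live in the gut epithelium. Ly49E, encoded by Klra5, is a receptor of the Ly49 family best known from NK cells. The 9 genes belong to no single pathway. Il34 encodes a secreted cytokine, Islr a secreted and membrane-anchored protein with leucine-rich repeats and Cd200r2 a surface receptor. Cela1 encodes a digestive protease, Pdzk1 a scaffold beneath the plasma membrane, and Gpx8, B4galnt4, Rnf180 and Creb3l1 encode proteins of the secretory pathway.

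The deposited values were log2 expression values, with array medians of 5.76 to 5.82 and 75th percentiles of 7.51 to 7.59. All 9 genes lay above the array median on all 9 arrays, and Gpx8, Cd200r2 and Pdzk1 lay above the 75th percentile on all 9. The sort markers followed the gates in part. Cd8a averaged 12.55 ± 0.0668 in Ly49E+CD8aa+, 12.58 ± 0.0669 in Ly49E-CD8aa+ and 11.42 ± 0.143 in Ly49E+CD8aa- cells (log2, SD, n = 3 arrays each). Klra5, open to cross-hybridisation within its family, averaged 11.40 ± 0.103 in Ly49E+CD8aa+ cells, 6.59 ± 0.982 in Ly49E-CD8aa+ cells and 11.43 ± 0.0654 in Ly49E+CD8aa- cells. Ptprc, which encodes CD45, averaged 11.82 to 11.85 in the 3 populations. Cd8b1, the CD8 beta chain gene, averaged 5.28 ± 0.0271 in Ly49E+CD8aa+ cells, 5.30 ± 0.133 in Ly49E-CD8aa+ cells and 8.34 ± 0.216 in Ly49E+CD8aa- cells. Cd3e, a CD3 chain gene in cells sorted as CD3-, averaged 11.75 ± 0.0374, 11.67 ± 0.0884 and 10.70 ± 0.467 in the same order.

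In Ly49E+CD8aa+ against Ly49E+CD8aa- cells all 9 genes were higher on every array, with no overlap. Of all 19938 genes, 7.41% had every Ly49E+CD8aa+ array above every Ly49E+CD8aa- array. In Ly49E-CD8aa+ against Ly49E+CD8aa- cells the 9 again did not overlap, beside 7.45% of all genes. The share of genes with all 6 CD8aa+ arrays above the Ly49E+CD8aa- arrays was 3.52%. The genes were picked for these differences, so the counts describe the choice, and nothing is read from them. The median difference of the 9 was 1.16 in Ly49E+CD8aa+ and 1.15 in Ly49E-CD8aa+ against Ly49E+CD8aa-, beside medians over all genes of 0.0253 and 0.0243. Both comparisons use the same 3 Ly49E+CD8aa- arrays. In bulk RNA, fewer cells of a type and less RNA per cell cannot be told apart.

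**Figure D1:**
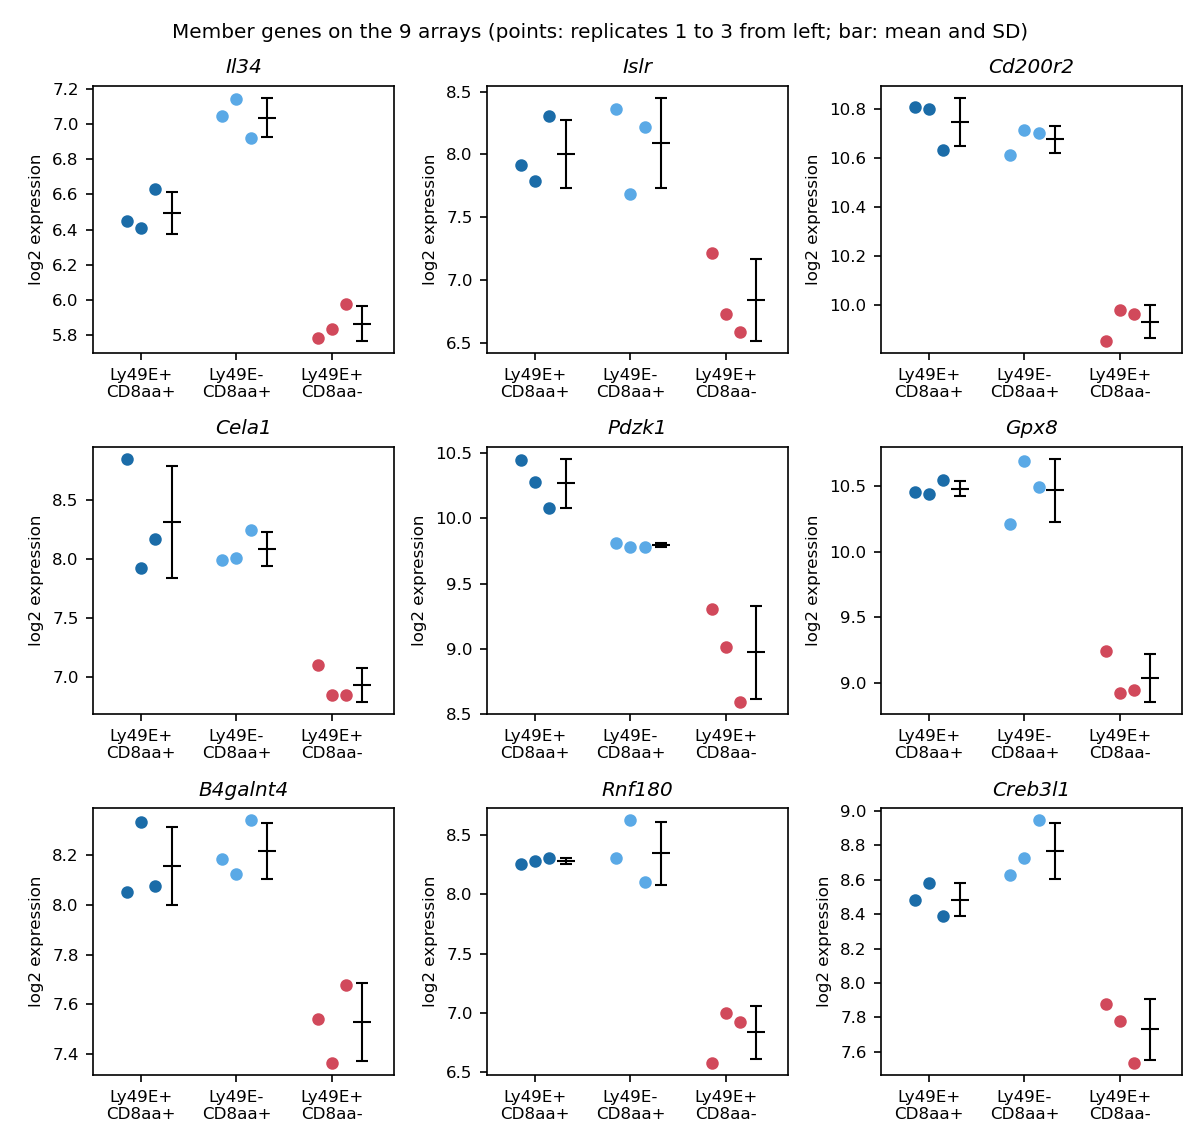
Log2 expression of the 9 genes on every array. Points are replicates 1 to 3 from left within Ly49E+CD8aa+, Ly49E-CD8aa+ and Ly49E+CD8aa- cells, and the bar beside them gives the mean and SD (n = 3). In each panel all 6 CD8aa+ points lie above the 3 Ly49E+CD8aa- points. The axes start at different values.

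Il34 encodes a cytokine ligand of the CSF1 receptor that is made by keratinocytes and neurons and sustains Langerhans cells and microglia. Il34 read 6.45, 6.41 and 6.63 (log2) on the Ly49E+CD8aa+ arrays, 7.05, 7.14 and 6.92 on the Ly49E-CD8aa+ arrays, and 5.79, 5.84 and 5.98 on the Ly49E+CD8aa- arrays. The 3 populations fell into 3 separate levels, highest in Ly49E-CD8aa+, intermediate in Ly49E+CD8aa+ and lowest in Ly49E+CD8aa-. Against Ly49E+CD8aa- cells the difference was 0.63 (SE 0.0900, 1.55-fold) in Ly49E+CD8aa+ cells and 1.17 (SE 0.0900, 2.25-fold) in Ly49E-CD8aa+. Of the 9 genes, Il34 was the one with no array above the 75th percentile.

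Il34 also had the lowest p of the 9 between the CD8aa+ populations, a comparison that the choice of genes did not use. It averaged 6.49 ± 0.119 in Ly49E+CD8aa+ and 7.03 ± 0.111 in Ly49E-CD8aa+ (SD, n = 3), a log2 difference of -0.54 (95% interval -0.74 to -0.34). The 3 Ly49E+CD8aa+ arrays lay below the 3 Ly49E-CD8aa+ arrays. The limma adjusted p over all genes was 0.105, above the threshold of 0.05, and 0.0955 to 0.435 over the alternatives. The unadjusted p was 0.000194.

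Of 5 listed receptors and partners of IL-34, 0 were higher and 1 was lower in each comparison with Ly49E+CD8aa-, and 0 passed between the CD8aa+ populations. Of all genes tested, 1.7% passed in Ly49E+CD8aa+ against Ly49E+CD8aa- cells and 2.15% in Ly49E-CD8aa+ against Ly49E+CD8aa- cells. Between the CD8aa+ populations 0.13% passed. Beside such shares, 0 passing in a short list, here and in the lists below, is no result about its genes. Csf1r, the shared receptor gene of IL-34 and CSF1, averaged 5.11 ± 0.110 in Ly49E+CD8aa+ cells, 5.27 ± 0.117 in Ly49E-CD8aa+ cells and 5.13 ± 0.0926 in Ly49E+CD8aa- cells (log2, SD, n = 3). Csf1r, Csf1 and Ptprz1, a further IL-34 receptor gene, were below the array median on all 9 arrays. The lower gene was Sdc1, which encodes syndecan 1, a proteoglycan that binds IL-34. Sdc1 fell by 0.47 in Ly49E+CD8aa+ (adjusted p = 0.0271) and by 0.56 in Ly49E-CD8aa+ (adjusted p = 0.00969) against Ly49E+CD8aa-. The first of these calls was lost in 8 of 19 alternatives, each of them with fewer arrays, and the second in 0 of 19. The list's median difference was 0.03 in Ly49E+CD8aa+ and 0.07 in Ly49E-CD8aa+.

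Islr encodes a protein also called meflin, known as a marker of mesenchymal stromal cells and fibroblasts. Islr read 7.92, 7.79 and 8.31 (log2) on the Ly49E+CD8aa+ arrays, 8.36, 7.68 and 8.22 on the Ly49E-CD8aa+ arrays, and 7.21, 6.73 and 6.59 on the Ly49E+CD8aa- arrays. Its arrays were the most scattered of the 9 genes, and the CD8aa+ populations overlapped each other while both stayed above Ly49E+CD8aa-. Its difference from Ly49E+CD8aa- cells was 1.16 (SE 0.219, 2.24-fold) in Ly49E+CD8aa+ cells and 1.25 (2.37-fold) in Ly49E-CD8aa+. The difference between Ly49E+CD8aa+ and Ly49E-CD8aa+ cells was -0.09 (95% interval -0.58 to 0.41, adjusted p = 1).

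Stromal markers were checked because of this known role of Islr. Of 10 markers of fibroblasts and stroma measured, 0 passed in any comparison, and 7 (Dcn, Lum, Pdgfra, Pdgfrb, Fn1, Sparc and Mgp) were below the array median on all arrays. Col1a2, a collagen gene above the median on all arrays, differed from Ly49E+CD8aa- by 0.43 in Ly49E+CD8aa+ (adjusted p = 0.191, unadjusted p = 0.0063), where the arrays did not overlap, and by 0.23 in Ly49E-CD8aa+ (adjusted p = 0.601), where they did. The part of stromal transcripts in the Islr values was not tested. The summed log2 level of the 10 ran from 51.3 to 51.6 in Ly49E+CD8aa+, from 50.5 to 51.8 in Ly49E-CD8aa+ and from 50.3 to 51.3 in Ly49E+CD8aa-. Islr2, the neighbouring relative of Islr, averaged 5.49 ± 0.0917 in Ly49E+CD8aa+ cells, 5.35 ± 0.124 in Ly49E-CD8aa+ cells and 5.33 ± 0.118 in Ly49E+CD8aa- cells. Of 6 listed genes, relatives of Islr and its partner Bmp7, 0 passed in either direction in the 3 comparisons.

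Cd200r2 is one of the mouse CD200 receptor genes, a cluster of close relatives in which Cd200r1 encodes the inhibitory receptor for CD200. Cd200r2 read 10.81, 10.80 and 10.63 (log2) on the Ly49E+CD8aa+ arrays, 10.61, 10.71 and 10.70 on the Ly49E-CD8aa+ arrays, and 9.86, 9.98 and 9.96 on the Ly49E+CD8aa- arrays. The CD8aa+ populations overlapped each other, and all 6 of their arrays stood well clear of the Ly49E+CD8aa- arrays. Set against Ly49E+CD8aa- cells, it differed by 0.81 (SE 0.0729, 1.76-fold) in Ly49E+CD8aa+ cells and 0.74 (1.67-fold) in Ly49E-CD8aa+. Ly49E+CD8aa+ minus Ly49E-CD8aa+ cells gave 0.07 (95% interval -0.09 to 0.23, adjusted p = 1).

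The rest of the CD200 system passed in no comparison, with 0 of 8 listed genes called. Cd200r1 averaged 9.08 ± 0.275 in Ly49E+CD8aa+ cells, 9.10 ± 0.361 in Ly49E-CD8aa+ cells and 8.74 ± 0.102 in Ly49E+CD8aa- cells (log2, SD, n = 3), with adjusted p of 0.653 and 0.573 for the comparisons with Ly49E+CD8aa-. Cd200, the ligand gene, averaged 5.57 ± 0.393, 5.59 ± 0.277 and 5.08 ± 0.113 in the same order, with adjusted p of 0.457 and 0.378. Cd200r3 and Cd200r4, which flank Cd200r2 on its chromosome, were below the array median on all 9 arrays. Tyrobp, the gene of the adaptor DAP12 used by activating members of the family, averaged 12.89 in Ly49E+CD8aa+ cells, 12.90 in Ly49E-CD8aa+ cells and 12.77 in Ly49E+CD8aa- cells and did not pass. Dok1, a listed partner, differed from Ly49E+CD8aa- by 0.59 in Ly49E+CD8aa+ (adjusted p = 0.129, unadjusted p = 0.00356), where the arrays did not overlap. In Ly49E-CD8aa+ it differed by 0.12 (adjusted p = 0.852). Dok2 differed the other way, by -0.32 and -0.17 (adjusted p = 0.504 and 0.752). The list's median difference was 0.22 in Ly49E+CD8aa+ and 0.17 in Ly49E-CD8aa+, beside 0.0253 and 0.0243 for all genes. Probes for these related genes may cross-hybridise, which was not tested.

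Cela1 encodes an elastase of the chymotrypsin-like family, known from digestive secretions. Cela1 read 8.85, 7.92 and 8.17 (log2) on the Ly49E+CD8aa+ arrays, 7.99, 8.01 and 8.25 on the Ly49E-CD8aa+ arrays, and 7.10, 6.85 and 6.85 on the Ly49E+CD8aa- arrays. Replicate 1 of Ly49E+CD8aa+ stood above the other CD8aa+ arrays, which overlapped. Against Ly49E+CD8aa- cells the difference was 1.38 (SE 0.206, 2.61-fold) in Ly49E+CD8aa+, and 1.12 without that replicate. It was 1.15 (2.22-fold) in Ly49E-CD8aa+. With Ly49E present rather than absent, CD8aa+ cells differed by 0.23 (95% interval -0.23 to 0.70, adjusted p = 1), and -0.03 without that replicate.

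Of the other pancreatic digestive enzymes, 0 of 8 measured genes passed in any comparison. Cela2a differed from Ly49E+CD8aa- by 0.31 in Ly49E+CD8aa+ (adjusted p = 0.571) and by 0.14 in Ly49E-CD8aa+ (adjusted p = 0.819). Prss2, a trypsinogen gene, differed the other way, by -0.46 (adjusted p = 0.471) and -0.36 (adjusted p = 0.577). Cela3b, Ctrb1, Cpa1 and Cpb1 were below the array median on all 9 arrays. The list's median difference was 0.06 in Ly49E+CD8aa+ and 0.02 in Ly49E-CD8aa+.

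Pdzk1 encodes a protein with PDZ domains that anchors transporters and receptors at the brush border of epithelial cells and holds the lipoprotein receptor SR-BI, encoded by Scarb1, at the hepatocyte surface. Pdzk1 read 10.45, 10.28 and 10.08 (log2) on the Ly49E+CD8aa+ arrays, 9.81, 9.78 and 9.78 on the Ly49E-CD8aa+ arrays, and 9.31, 9.01 and 8.59 on the Ly49E+CD8aa- arrays. Like Il34 it fell into 3 separate levels, in another order, with Ly49E+CD8aa+ highest and Ly49E-CD8aa+ intermediate. Its difference from Ly49E+CD8aa- cells was 1.30 (SE 0.164, 2.46-fold) in Ly49E+CD8aa+ cells and 0.82 (1.77-fold) in Ly49E-CD8aa+. Pdzk1 averaged 10.27 ± 0.187 in Ly49E+CD8aa+ and 9.79 ± 0.0158 in Ly49E-CD8aa+ (SD, n = 3), a difference of 0.48 (95% interval 0.10 to 0.85, adjusted p = 1, unadjusted p = 0.0176).

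Partners of Pdzk1 passed in no comparison, with 0 of 13 listed genes called. Slc9a3r1, the gene of the related scaffold NHERF1, averaged 11.03 in Ly49E+CD8aa+ cells, 11.13 in Ly49E-CD8aa+ cells and 11.05 in Ly49E+CD8aa- cells. Slc9a3r2, also on the list, differed from Ly49E+CD8aa- by 0.23 in Ly49E+CD8aa+ and 0.22 in Ly49E-CD8aa+ (limma adjusted p = 0.36 and 0.342). Its arrays did not overlap in either. The list's median difference was 0.01 and 0.08. Scarb1 differed from Ly49E+CD8aa- by 0.21 in Ly49E+CD8aa+ and 0.41 in Ly49E-CD8aa+ (adjusted p = 0.786 and 0.457). Slc15a1, a peptide transporter gene of enterocytes, had differences of -0.40 and -0.80 (adjusted p = 0.736 and 0.296).

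The mean of the enterocyte markers was highest on replicate 1 of each population, though not every single marker was. Of 15 enterocyte markers measured, 0 passed in any comparison, and 1 of them, Sis, was below the array median on all arrays. Krt18, an epithelial keratin gene, differed from Ly49E+CD8aa- by 0.50 in Ly49E+CD8aa+ (adjusted p = 0.0683) and by 0.26 in Ly49E-CD8aa+ (adjusted p = 0.453), with no overlap of the arrays in either. Epcam, an epithelial adhesion gene, differed by 0.33 (adjusted p = 0.237, unadjusted p = 0.00923) and by 0.22 (adjusted p = 0.517). Fabp1 differed by 0.02 and, the other way, by -0.86 (limma adjusted p = 0.324, unadjusted p = 0.0203). Between the CD8aa+ populations Fabp1 was higher in Ly49E+CD8aa+ by 0.87 (limma unadjusted p = 0.0186), and the arrays did not overlap. Krt19 differed from Ly49E+CD8aa- by -0.10 and -0.22. The list's median difference was 0.02 in Ly49E+CD8aa+ and -0.07 in Ly49E-CD8aa+. Within Ly49E+CD8aa+ Epcam was lowest on replicate 1, and within Ly49E+CD8aa- Krt18 was lowest on replicate 1. The summed log2 level of the 15 ran from 122.1 to 129.0 in Ly49E+CD8aa+, from 117.9 to 129.3 in Ly49E-CD8aa+ and from 118.2 to 129.7 in Ly49E+CD8aa-. Their mean was 8.60, 8.62 and 8.64 on replicate 1 of the 3 populations and 7.86 to 8.22 on the other 6 arrays. Pdzk1 was also highest on replicate 1 within each population. Cela1 was highest on replicate 1 in Ly49E+CD8aa+ and Ly49E+CD8aa- and lowest on it in Ly49E-CD8aa+.

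With the enterocyte marker mean of each array added to the model, the Pdzk1 difference from Ly49E+CD8aa- was 1.27 (SE 0.126) in Ly49E+CD8aa+ and 0.87 (SE 0.127) in Ly49E-CD8aa+. The Cela1 differences were 1.36 (SE 0.199) and 1.19 (SE 0.200). These values differed from those without the covariate by less than their SE. The marker mean covered similar ranges in the populations, so adding it could move the differences only a little, whatever their source. It ran from 8.14 to 8.60 in Ly49E+CD8aa+, from 7.86 to 8.62 in Ly49E-CD8aa+ and from 7.88 to 8.64 in Ly49E+CD8aa-. Whether enterocyte transcripts contribute to the Pdzk1 and Cela1 values was not tested. The covariate was chosen after the values were seen. Secretory epithelium, with 7 markers measured, had 0 passing in any comparison and summed levels of 47.6 to 52.3 in Ly49E+CD8aa+ cells, 46.0 to 51.0 in Ly49E-CD8aa+ cells and 45.4 to 53.9 in Ly49E+CD8aa- cells.

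**Figure D2:**
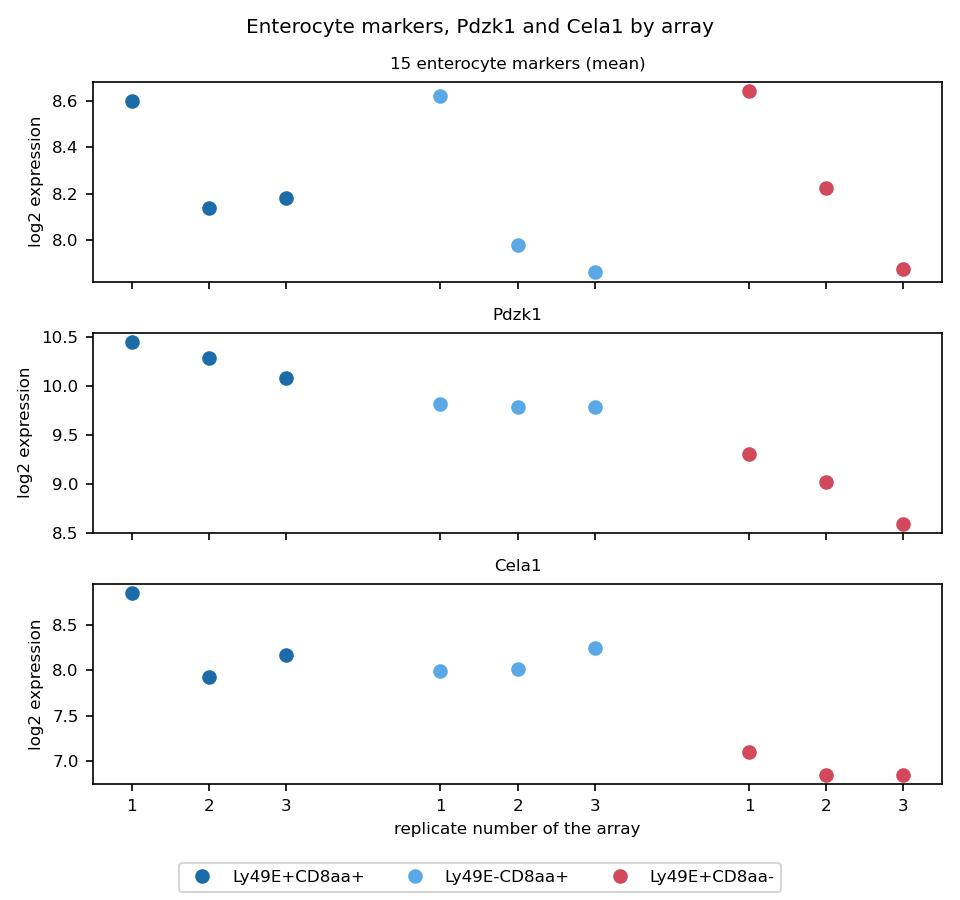
Mean log2 expression of 15 enterocyte markers, of Pdzk1 and of Cela1 on each array, by population from left (Ly49E+CD8aa+, Ly49E-CD8aa+, Ly49E+CD8aa-) and by replicate number. Replicate 1 has the highest marker mean in each population, while Pdzk1 and Cela1 separate the CD8aa+ arrays from the Ly49E+CD8aa- arrays.

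Gpx8 encodes a glutathione peroxidase family member anchored in the membrane of the endoplasmic reticulum, where it takes part in oxidative protein folding. Gpx8 read 10.46, 10.44 and 10.54 (log2) on the Ly49E+CD8aa+ arrays, 10.21, 10.69 and 10.50 on the Ly49E-CD8aa+ arrays, and 9.24, 8.92 and 8.94 on the Ly49E+CD8aa- arrays. The Ly49E+CD8aa+ arrays lay close together inside the range of the Ly49E-CD8aa+ arrays, and both populations lay above Ly49E+CD8aa-. Set against Ly49E+CD8aa- cells, it differed by 1.44 (SE 0.128, 2.72-fold) in Ly49E+CD8aa+, the 5th largest positive difference of all genes, and 1.43 (2.70-fold) in Ly49E-CD8aa+. The difference between Ly49E+CD8aa+ and Ly49E-CD8aa+ cells was 0.01 (95% interval -0.28 to 0.30, adjusted p = 1).

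Other peroxidases and the thiol oxidation machinery did not pass, with 0 of 15 listed genes called in any comparison. Gpx7, the closest family relative in the endoplasmic reticulum, averaged 5.68 ± 0.0464 in Ly49E+CD8aa+ cells, 5.59 ± 0.258 in Ly49E-CD8aa+ cells and 5.66 ± 0.0425 in Ly49E+CD8aa- cells (log2, SD, n = 3). Gpx1, the cytosolic enzyme gene, averaged 10.68 ± 0.168, 10.93 ± 0.0547 and 11.11 ± 0.0784 in the same order, with adjusted p of 0.0591 for Ly49E+CD8aa+ and 0.543 for Ly49E-CD8aa+ against Ly49E+CD8aa-. Ero1a, of the thiol oxidation genes, differed from Ly49E+CD8aa- by -0.41 in Ly49E+CD8aa+ and -0.42 in Ly49E-CD8aa+ (limma adjusted p = 0.287 and 0.24). Its arrays did not overlap in either. Ero1b differed the other way, by 0.21 and 0.09 (limma adjusted p = 0.36 and 0.76). The list's median difference was 0.02 and -0.03, beside 0.0253 and 0.0243 for all genes.

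B4galnt4 encodes a transferase of the Golgi that adds N-acetylgalactosamine to form the LacdiNAc end group of glycans. B4galnt4 read 8.05, 8.34 and 8.08 (log2) on the Ly49E+CD8aa+ arrays, 8.19, 8.13 and 8.34 on the Ly49E-CD8aa+ arrays, and 7.54, 7.36 and 7.68 on the Ly49E+CD8aa- arrays. The CD8aa+ populations overlapped almost fully and both lay above Ly49E+CD8aa-. Against Ly49E+CD8aa- cells the difference was 0.63 (SE 0.109, 1.55-fold) in Ly49E+CD8aa+ cells and 0.69 (1.61-fold) in Ly49E-CD8aa+. In Ly49E+CD8aa+ this difference and that of Il34 were the smallest of the 9. Ly49E+CD8aa+ minus Ly49E-CD8aa+ cells gave -0.06 (95% interval -0.31 to 0.18, adjusted p = 1).

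Related transferases passed in no comparison, with 0 of 9 measured genes called. B4galnt2 averaged 8.86 ± 0.0980 in Ly49E+CD8aa+ cells, 8.93 ± 0.144 in Ly49E-CD8aa+ cells and 8.44 ± 0.188 in Ly49E+CD8aa- cells, with adjusted p of 0.136 and 0.066 against Ly49E+CD8aa-. B4galnt3, whose enzyme forms the same LacdiNAc group, averaged 6.26, 6.06 and 6.20 in the same order. B4galnt1, a ganglioside synthase gene, averaged 10.29, 10.28 and 10.33 in that order.

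Rnf180 encodes a RING-type ubiquitin ligase with a membrane anchor. Rnf180 read 8.26, 8.28 and 8.30 (log2) on the Ly49E+CD8aa+ arrays, 8.31, 8.62 and 8.10 on the Ly49E-CD8aa+ arrays, and 6.58, 7.004 and 6.92 on the Ly49E+CD8aa- arrays. Its Ly49E+CD8aa+ arrays were nearly equal and lay inside the range of Ly49E-CD8aa+, well above Ly49E+CD8aa-. Its difference from Ly49E+CD8aa- cells was 1.44 (SE 0.143, 2.72-fold) in Ly49E+CD8aa+ cells and 1.51 (2.84-fold) in Ly49E-CD8aa+, the largest of the 9 genes there. With Ly49E present rather than absent, CD8aa+ cells differed by -0.06 (95% interval -0.39 to 0.26, adjusted p = 1).

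Among 5 listed genes tied to Rnf180 by known substrates or position, 0 passed in any comparison. Maoa, the gene of monoamine oxidase A, a known substrate, averaged 5.34 in Ly49E+CD8aa+ cells, 5.07 in Ly49E-CD8aa+ cells and 5.37 in Ly49E+CD8aa- cells. Zic2, a further substrate gene, was below the array median on all arrays, as were Maoa, Maob and Rgs7bp.

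Creb3l1 encodes a transcription factor held in the membrane of the endoplasmic reticulum and released by cleavage in the Golgi, known for secretory and matrix-producing cells. Creb3l1 read 8.48, 8.58 and 8.39 (log2) on the Ly49E+CD8aa+ arrays, 8.63, 8.72 and 8.95 on the Ly49E-CD8aa+ arrays, and 7.88, 7.78 and 7.53 on the Ly49E+CD8aa- arrays. The Ly49E-CD8aa+ arrays were highest and cleared the Ly49E+CD8aa+ arrays by a narrow gap of 0.05. Set against Ly49E+CD8aa- cells, it differed by 0.76 (SE 0.113, 1.69-fold) in Ly49E+CD8aa+ cells and 1.04 (2.05-fold) in Ly49E-CD8aa+. The difference between Ly49E+CD8aa+ and Ly49E-CD8aa+ cells was -0.28 (95% interval -0.54 to -0.03, adjusted p = 1, unadjusted p = 0.0335).

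Of 18 measured genes of the CREB3 family and the stress response of the endoplasmic reticulum, 1 was lower and 0 were higher in each comparison with Ly49E+CD8aa-. The lower gene was Ern1, which encodes the stress sensor IRE1. Ern1 averaged 8.09 ± 0.120 in Ly49E+CD8aa+ cells, 8.07 ± 0.0599 in Ly49E-CD8aa+ cells and 8.58 ± 0.125 in Ly49E+CD8aa- cells (log2, SD, n = 3), with adjusted p of 0.0254 and 0.0174. These calls were lost in 6 and 4 of 20 alternatives. Atf6, the gene of a sensor cleaved like CREB3L1, had differences of -0.43 and -0.36 (adjusted p = 0.0537 and 0.0982). Those of Eif2ak3, which encodes the sensor PERK, were 0.40 and 0.39 (adjusted p = 0.0799 and 0.0798). Mbtps1, also on the list, had differences of 0.31 and 0.35 (adjusted p = 0.19 and 0.117), with no overlap of the arrays in either. Creb3l2, the closest relative of Creb3l1, averaged 6.43 in Ly49E+CD8aa+ cells, 6.45 in Ly49E-CD8aa+ cells and 6.51 in Ly49E+CD8aa- cells. Hspa5, the gene of the chaperone BiP, which reports such stress, averaged 11.66, 11.68 and 11.64 in the same order.

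**Figure D3:**
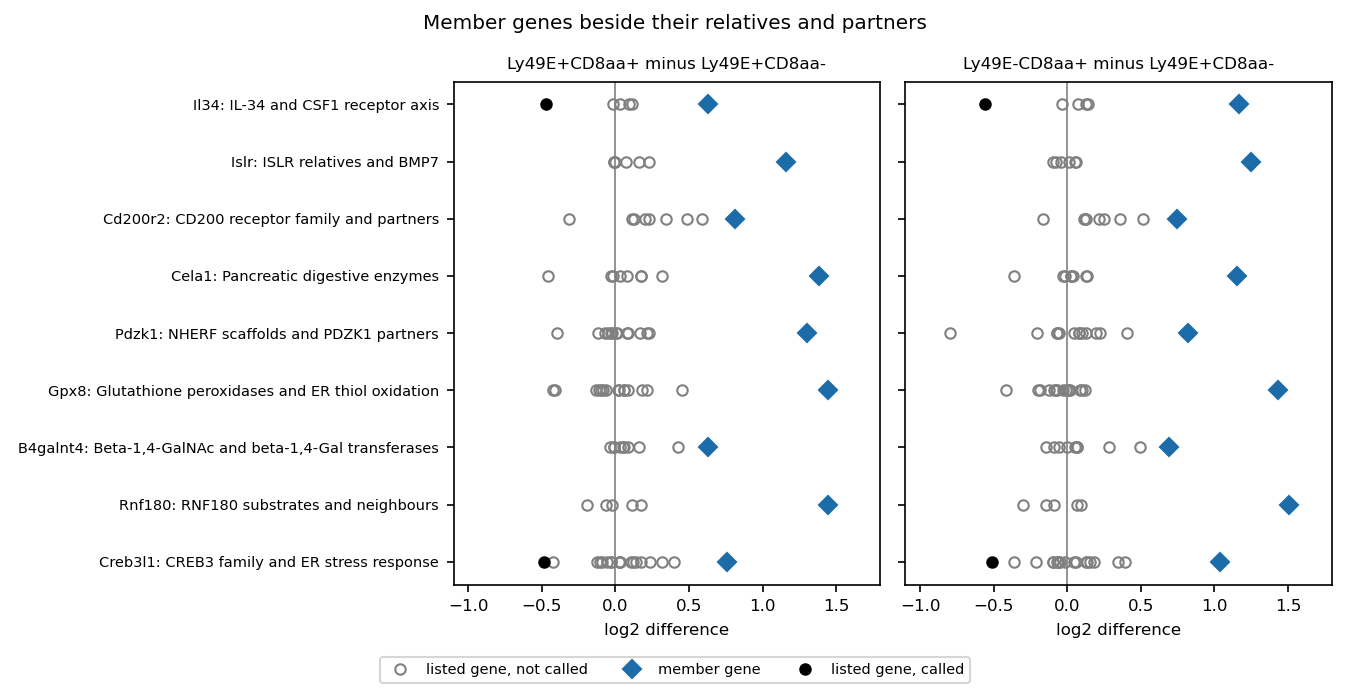
Log2 difference from Ly49E+CD8aa- for each of the 9 genes (diamonds) and for the relatives and partners listed for it (circles), in Ly49E+CD8aa+ on the left and Ly49E-CD8aa+ on the right. Filled circles passed at an adjusted p under 0.05. They are Sdc1 and Ern1, both below 0, and each of the 9 genes lies to the right of all genes of its own list. The 9 genes were picked for being higher in these comparisons, so their place beside the lists describes the choice.

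Between the CD8aa+ populations, Ly49E+CD8aa+ minus Ly49E-CD8aa+, 0 of the 9 genes passed by limma, beside 0.13% of all genes. An unadjusted p under 0.05 was found for 3 of the 9 (Il34, Pdzk1 and Creb3l1), beside 4.18% of all genes, and the arrays of the same 3 did not overlap, beside 6.25% of all genes. Il34 and Creb3l1 had the higher mean in Ly49E-CD8aa+, and Pdzk1 had it in Ly49E+CD8aa+. The differences of the other 6 genes ran from -0.09 to 0.23. Their intervals reached at most 0.70 on the higher side and -0.58 on the lower side, so a 2-fold difference lies outside each of them. The fold limits were widest for Islr and Cela1.

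Markers of dendritic cells were read beside this comparison. Of 7 measured, Siglech, a lectin gene of plasmacytoid dendritic cells, was lower in Ly49E+CD8aa+ cells than in Ly49E-CD8aa+ cells (difference -1.98, adjusted p = 0.00099). Siglech and Clec9a were higher in Ly49E-CD8aa+ cells than in Ly49E+CD8aa- cells (differences of 1.87 and 0.73, adjusted p = 7.28e-05 and 0.0138), and 0 passed in Ly49E+CD8aa+ against Ly49E+CD8aa-. Itgax, also on the list, went the other way without passing. It differed from Ly49E+CD8aa- by -0.38 in Ly49E+CD8aa+ and -0.35 in Ly49E-CD8aa+ (limma adjusted p = 0.413 and 0.447), with no overlap of the arrays in either. The list's median difference was -0.11 in Ly49E+CD8aa+ and 0.39 in Ly49E-CD8aa+. The Clec9a call was lost in 3 of 18 alternatives, with the 6 arrays of the comparison alone and without Ly49E+CD8aa- replicate 1 or 3 (highest adjusted p = 0.0627), and the Siglech call against Ly49E+CD8aa- in 0 of 20. The summed log2 level of the 7 markers was 41.8 to 42.3 in Ly49E+CD8aa+, 45.0 to 48.2 in Ly49E-CD8aa+ and 42.5 to 42.8 in Ly49E+CD8aa-. Zbtb46, Xcr1 and Clec9a were below the array median on all arrays. With the 6 arrays of the CD8aa+ populations alone, 0 genes passed between them, Siglech included. The part of these transcripts in the Il34 and Creb3l1 values was not tested.

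**Figure D4:**
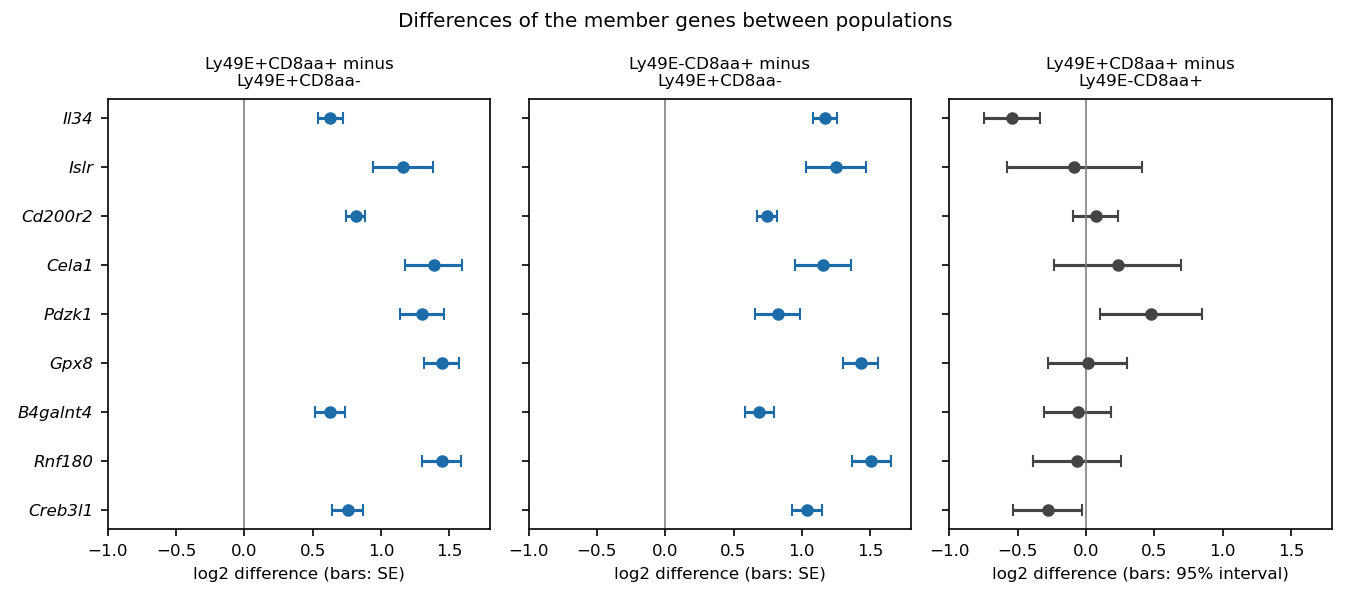
Log2 differences of the 9 genes in Ly49E+CD8aa+ minus Ly49E+CD8aa- (left, bars are SE), Ly49E-CD8aa+ minus Ly49E+CD8aa- (middle, bars are SE) and Ly49E+CD8aa+ minus Ly49E-CD8aa+ (right, bars are 95% intervals). The right panel shows Il34 at -0.54 and Pdzk1 at 0.48 on opposite sides of 0, with the intervals of 6 genes crossing 0.

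Other cell types were checked by their markers. Of 8 macrophage and monocyte markers measured, 0 passed in any comparison, and 6 (Csf1r, Adgre1, Cd14, Fcgr1, Mertk and Lyz2) were below the array median on all arrays. Their summed log2 level was 43.3 to 44.2 in Ly49E+CD8aa+, 42.3 to 44.8 in Ly49E-CD8aa+ and 41.7 to 42.4 in Ly49E+CD8aa-. Cd68 averaged 7.50 ± 0.0419, 7.64 ± 0.494 and 6.72 ± 0.0994 in that order (adjusted p = 0.131 and 0.0569 against Ly49E+CD8aa-). Itgam differed from Ly49E+CD8aa- by 0.57 in Ly49E+CD8aa+ (adjusted p = 0.192) and by 0.66 in Ly49E-CD8aa+ (adjusted p = 0.0977). For both Cd68 and Itgam the arrays did not overlap in either of these comparisons. Of 5 endothelial markers 0 passed, and 4 (Cdh5, Kdr, Tek and Emcn) were below the array median on all arrays. The other, Pecam1, was above the 75th percentile on all 9 arrays. Pecam1 differed from Ly49E+CD8aa- by 0.41 in Ly49E+CD8aa+ (adjusted p = 0.135) and by 0.30 in Ly49E-CD8aa+ (adjusted p = 0.332). Its arrays did not overlap in either comparison. The summed level of the 5 was 27.5 to 28.1 in Ly49E+CD8aa+ cells, 27.6 to 28.1 in Ly49E-CD8aa+ cells and 27.1 to 27.3 in Ly49E+CD8aa- cells. The part of macrophage and endothelial transcripts in the values of the 9 genes was not tested. Mast cell and B cell lists had 0 genes passing in the 3 comparisons, of 6 and 4 measured.

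Of 8 genes that mark intraepithelial lymphocytes, Itgae, the integrin chain CD103, and Il2rb, the IL-2 and IL-15 receptor beta chain, were higher in both CD8aa+ populations. Itgae differed from Ly49E+CD8aa- by 0.31 in Ly49E+CD8aa+ (adjusted p = 0.0400) and 0.34 in Ly49E-CD8aa+ (adjusted p = 0.0213). Il2rb differed by 0.40 and 0.36 (adjusted p = 0.0248 and 0.0344). Xcl1 and Cd160 were lower in Ly49E-CD8aa+ cells than in Ly49E+CD8aa- cells, by log2 differences of -0.50 and -0.86 (adjusted p = 0.0166 and 0.0102). The Itgae calls were lost in 14 of 20 alternatives in Ly49E+CD8aa+ and 6 of 20 in Ly49E-CD8aa+, in both with the replicate number as a block. The Il2rb calls were lost in 6 of 20 and 11 of 20, the Xcl1 call in 5 of 20 and the Cd160 call in 1 of 20.

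Profiles over the arrays were compared between the 9 genes. After each gene was centred on its own mean, the measure was the root mean square of their log2 differences over the 9 arrays, where 0 means identical shape and step size. The measure grows with a difference in step size as well as in shape and with array noise, and it was not tested. The closest pair was Cd200r2 and B4galnt4 at 0.147, followed by Cd200r2 and Creb3l1 at 0.199. Il34 and Pdzk1 were farthest apart at 0.496.

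Among genes with a symbol other than the 9 themselves, Ptpn5, which encodes a tyrosine phosphatase, had the profile nearest to Rnf180 (0.238) and Gpx8 (0.191), and Cd8a was the next for both (0.244 and 0.198). Rnf180 and Gpx8 lay at 0.228 from each other. Ptpn5 averaged 9.52 ± 0.129 in Ly49E+CD8aa+ cells, 9.72 ± 0.0635 in Ly49E-CD8aa+ cells and 8.26 ± 0.116 in Ly49E+CD8aa- cells (log2, SD, n = 3). Islr lay nearest to Cd3e (0.222) and then Ptpn5 (0.254). Cela1 lay nearest to Scin, which encodes the actin-severing protein scinderin (0.234), and then Ptpn5 (0.261).

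Pdzk1 lay nearest to Tnfrsf9, the gene of the costimulatory receptor 4-1BB (0.147), and then Epb41l4a (0.195). Tnfrsf9 averaged 10.05 ± 0.175 in Ly49E+CD8aa+ cells, 9.55 ± 0.0598 in Ly49E-CD8aa+ cells and 8.91 ± 0.226 in Ly49E+CD8aa- cells, the same 3-step order as Pdzk1. Il34 lay nearest to Dnajc6, the gene of the clathrin-uncoating cofactor auxilin (0.126), and then Sec14l1 (0.158). Dnajc6 averaged 7.99 ± 0.0966, 8.31 ± 0.0960 and 7.25 ± 0.169 in that order of populations, the order of Il34.

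The nearest profiles to Cd200r2 were Itsn1 (0.102) and Cyth3 (0.105), which encode an endocytic scaffold and an exchange factor for ARF proteins. Those nearest to B4galnt4 were Gpd2 (0.0848), the mitochondrial glycerol phosphate dehydrogenase gene, and Myo5a (0.0917), a myosin motor gene. Those nearest to Creb3l1 were Rasgrf1 (0.128), an exchange factor gene for RAS, and Cpd (0.129), a carboxypeptidase gene. These genes were picked for likeness to genes already chosen by difference, so their differences are not tested here.

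The neighbours of the 9 genes on their chromosomes were read as well. The nearest measured protein-coding gene on each side, 18 genes by RefSeq order on assembly GRCm38.p6, had 0 higher genes in either comparison with Ly49E+CD8aa-. Their median difference was 0.13 in Ly49E+CD8aa+ (range -0.54 to 0.38) and 0.05 in Ly49E-CD8aa+ (range -0.86 to 0.29). The 1 lower neighbour was Cd160, next to Pdzk1. Beside Gpx8, Gzma, which encodes granzyme A, averaged 12.85 in Ly49E+CD8aa+ cells, 12.84 in Ly49E-CD8aa+ cells and 12.77 in Ly49E+CD8aa- cells. The neighbours were chosen after the values of the 9 genes were known.

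Promoter sequence was at hand in RefSeq's table (GRCm38.p6) for 7 of the 9 genes, Il34 and Creb3l1 not among them, as the 250 bases before a start site. Short binding motifs were searched on both strands, and 4 promoters that hold 1 or more of them are shown 5′ to 3′ on the gene's strand with the matches in capitals, to give the letters behind the counts that follow. Cd200r2 lies on the + strand (chr16:44866847-44867096), the first Pdzk1 promoter on the + strand (chr3:96829815-96830064), Cela1 on the - strand (chr15:100687921-100688170) and Gpx8 on the - strand (chr13:113046389-113046638).
Cd200r2: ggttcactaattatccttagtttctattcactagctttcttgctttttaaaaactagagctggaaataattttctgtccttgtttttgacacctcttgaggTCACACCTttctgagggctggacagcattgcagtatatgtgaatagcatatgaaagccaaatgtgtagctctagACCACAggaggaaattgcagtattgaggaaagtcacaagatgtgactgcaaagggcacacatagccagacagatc
Pdzk1: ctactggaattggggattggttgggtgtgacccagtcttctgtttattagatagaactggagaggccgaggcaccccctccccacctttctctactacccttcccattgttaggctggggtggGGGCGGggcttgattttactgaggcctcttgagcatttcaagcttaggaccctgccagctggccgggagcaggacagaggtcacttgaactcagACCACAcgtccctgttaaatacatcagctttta
Cela1: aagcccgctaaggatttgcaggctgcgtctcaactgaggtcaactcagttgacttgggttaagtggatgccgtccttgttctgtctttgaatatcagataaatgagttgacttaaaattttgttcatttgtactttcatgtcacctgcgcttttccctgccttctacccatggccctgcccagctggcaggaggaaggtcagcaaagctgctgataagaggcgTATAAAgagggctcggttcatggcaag
Gpx8: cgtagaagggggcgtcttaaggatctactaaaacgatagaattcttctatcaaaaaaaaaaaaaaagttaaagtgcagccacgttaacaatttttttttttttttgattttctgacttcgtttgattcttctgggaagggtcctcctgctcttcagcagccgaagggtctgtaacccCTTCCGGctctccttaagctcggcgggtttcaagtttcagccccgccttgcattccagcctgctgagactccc

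Cd200r2 and Pdzk1 each held the RUNX motif TGTGGT on the opposite strand, with its first base 75 and 33 bases before the start site. RUNX factors are known regulators of Cd8a and of many lymphocyte genes. Of all 32851 promoters in the table, 14.0% held this motif. Cd200r2 also held the T-box motif AGGTGTGA on the opposite strand, 149 bases before the start, a motif found in 1.12% of all promoters. Pdzk1 held the GC box GGGCGG, 127 bases before the start (32.7% of all promoters). Cela1 held TATAAA, 27 bases before the start (12.4%), and Gpx8 held the ETS motif CCGGAAG on the opposite strand, 73 bases before the start (6.91%).

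No motif searched was shared by more than 2 of the 7 genes. The cyclic AMP response element TGACGTCA (1.55% of all promoters), the E-box CACGTG (6.02%) and the endoplasmic reticulum stress element ERSE (0.113%) were in none of the 9 promoters of these 7 genes. The AP-1 motif TGANTCA (6.75%) was in the second Rnf180 promoter. None of the motifs overlapped another in the promoters shown. GC content of the 4 promoters was 40.4%, 53.2%, 48.0% and 44.8% for Cd200r2, Pdzk1, Cela1 and Gpx8, beside a median of 52.4% for all promoters. A match describes letters in this window and not a bound site.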

How the data were processed

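Total RNA of 9 samples was measured on 1-colour Affymetrix arrays. The authors deposited log2 expression values made with RMA, per the submitters' processing notes, with version, build and annotation not given in the sources used here. Their scale follows from the values, which ran from 1.84 to 13.84. Of 35556 rows, 21789 carried 1 symbol in the platform annotation, 1621 carried several and 12146 were not listed. Where a gene had several rows (999 genes), the row with the highest mean stood for it, which left 19938 genes with no filter on dim rows. No detection calls were used, so a low value is not taken as absence.

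A mean per population was fitted to all 9 arrays with limma 3.58.1 in R 4.3.3 (lmFit and eBayes, residual degrees of freedom 6, prior 3.08). Tests were 2-sided, with Benjamini-Hochberg adjustment over all genes and calls at an adjusted p under 0.05. Precision is limited by the number of arrays, with a median SE of 0.0976 per difference. The members and lists were chosen with earlier results of these data known, so members have no p in the comparisons with Ly49E+CD8aa-. Named besides the members were the sort markers, the 2 nearest profiles of each member, called genes of the lists (up to 4 per pathway list and 3 per marker list) and set family relatives. Neighbours were named after their values were seen, and so were a few list members. The fit was checked on simulated data. Alternatives changed the arrays, filter, normalization, moderation, weights, rows, replicate block, minimum difference and an enterocyte covariate. List genes not measured here were not analysed.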

Additional observations from a re-analysis of the deposited data

How the results depend on the processing

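Across 180 alternative values in each comparison with Ly49E+CD8aa-, the 9 genes kept their direction and moved by less than their SD between replicates. Many of these values could not move. Row filters, changes of moderation, the replicate block and the use or loss of arrays outside a comparison leave a difference as it was. The genes were also picked for these differences, so the count of 180 is no measure of how firm they are. Leaving out 1 array at a time gave 0.54 (B4galnt4) to 1.58 (Cela1) in Ly49E+CD8aa+ and 0.61 (B4galnt4) to 1.63 (Rnf180) in Ly49E-CD8aa+. Between the CD8aa+ populations 10 of 180 values turned sign, none of them called, and again many of the 180 could not move. Gpx8 was -0.0176 after quantile normalization again and -0.0692 with array weights, and Islr was 0.0024 with array weights. Without single arrays the ranges were -0.19 to 0.0753 for Rnf180, -0.11 to 0.12 for Gpx8, -0.29 to 0.0522 for Islr, -0.15 to 0.0002 for B4galnt4 and -0.0348 to 0.43 for Cela1. The cause was not tested.

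Counts of called genes moved more. With the 6 arrays of a comparison alone, which are fewer samples, 263 genes in place of 429 passed in Ly49E-CD8aa+ against Ly49E+CD8aa- and 0 in place of 26 between the CD8aa+ populations by limma (695 with an unadjusted p under 0.05). Among genes above the median of row means, 15 passed there. With a minimum log2 difference of 0.5, 107, 123 and 4 passed in Ly49E+CD8aa+ against Ly49E+CD8aa-, in Ly49E-CD8aa+ against Ly49E+CD8aa- and between the CD8aa+ populations. Without 1 array the counts ran from 239 to 321, from 290 to 372 and from 5 to 32. The 26 became 5 when Ly49E+CD8aa+ replicate 1 or 2 was left out and 7 for its replicate 3. They became 9 when Ly49E-CD8aa+ replicate 1 was left out, rose to 32 for its replicate 2 and became 10 for its replicate 3. They became 6 when Ly49E+CD8aa- replicate 1 or 2 was left out and 10 for its replicate 3. With the replicate number as a block, 374, 417 and 17 genes passed. The numbers were not taken to pair the arrays, since the deviations of same-numbered arrays correlated at -0.06 to 0.22.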
